A study of Mus musculus with 7 samples.

Results

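The genes described here are the mouse genes named Zfp followed by a number alone, such as Zfp52 or Zfp286. They were chosen by name and by level, as the rows whose counts summed to 140 or more over 7 RNA sequencing libraries, which left 181 of 339 such rows, out of 22738 gene rows in all. The libraries came from epicardial explants, cells of the outer layer of the heart that migrate from E12.5 mouse ventricles laid on gelatin. Hearts lay on the wells for 48 hours and the cells left behind grew for another 72 hours. There were 4 wild type libraries and 3 Lmnb1-/- libraries, which lack the gene of the nuclear lamina protein lamin B1, and all were on the mixed C57BL/6, 129S4Sv/Jae and 129S6/SvEvTac background with no treatment. The labels do not say whether a library is 1 heart or a pool, so p-values measure the spread between these libraries, which may be in part technical.

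Zinc finger proteins of the C2H2 class hold repeated fingers, each folded around a zinc ion, that read DNA sequence. The largest mammalian subgroup carries a KRAB box, a short domain that binds the corepressor TRIM28 and through it brings the histone methyltransferase SETDB1 and HP1 proteins to the bound site, where retroelements and some imprinted genes are kept silent. KRAB zinc finger genes lie in tandem clusters, and such clusters are known among the chromatin regions that touch the nuclear lamina. Lamina contact itself was not measured here. The comparison below therefore asks whether these genes shift together when lamin B1 is missing.

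Total counts per library ran from 1024898 to 3066936. Levels are given as CPM, counts scaled to a common library size with TMM factors. In wild type Lmnb1 itself stood at 204 ± 24.6 CPM (SD, n = 4), against 1.49 ± 0.498 CPM in the Lmnb1-/- libraries (SD, n = 3). Wild type replicates 1 and 3 were female by their Xist counts of 595 and 642, whereas the other 5 libraries had 0 to 7. All Lmnb1-/- libraries were thus male, so sex is partly confounded with genotype. The summed level of 7 epicardial markers ran from 1558 to 2257 CPM in wild type and from 1165 to 1401 CPM in Lmnb1-/- libraries. That of 7 smooth muscle and pericyte markers ran from 10790 to 12020 and from 8066 to 8805 CPM. Of these 7 smooth muscle and pericyte markers, 4 were lower at an edgeR adjusted p under 0.05, beside 0.343% of all tested genes, and 0 higher. No marker of the other lists passed. Macrophage markers (6 genes) summed to 28.9 to 177.5 and 25.1 to 284.7 CPM, cardiomyocyte markers (7 genes, with Myh7 and Actn2 at 0 counts in every library) to 96.6 to 149.9 and 118.2 to 122.5 CPM, endothelial markers (5 genes) to 20.7 to 48.5 and 25.7 to 39.8 CPM, and blood markers (6 rows for 5 names) to 4.52 to 24.0 and 4.50 to 28.8 CPM. In such bulk samples fewer cells of a type and less RNA per cell cannot be told apart, and the part of these differences in the values below was not tested.

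In the fit used here, which had no term for sex, the numbered Zfp genes showed no shared shift in their median. No test of the set was run. For the fits with a term for sex or for library-number groups, a shift of members alone cannot be read, as given below. Their median log2 fold change, Lmnb1-/- over wild type, was -0.01, with 82 of 181 members above 0 and 99 below, against a median of -0.02 over all 10775 tested genes, of which 5128 were above 0 and 5647 below. Scaled by library totals alone, both medians turned positive, to 0.0287 and 0.029. Every member passed the filter on low counts and had at least 1 count in each library. Among the 181 members 1, Zfp365, rose past a Benjamini-Hochberg adjusted p of 0.05 in the quasi-likelihood test of edgeR, and 0 fell. Over all tested genes 0.705% passed that threshold, 0.362% higher and 0.343% lower, so this share of members is near the background. By an unadjusted p under 0.05 from the same edgeR fit, 10 members differed, 4 higher and 6 lower, which is 5.52% of members, where 13.6% of all tested genes did (6.2% higher and 7.43% lower). No overlap in CPM between genotypes was seen for 21 members, 8 higher and 13 lower in Lmnb1-/- libraries, or 11.6%, against 13.3% of all tested genes (6.36% higher and 6.92% lower). The median of mean CPM was 23.75 over members and 35.8 over all tested genes, so these shares compare genes of unlike level. The differences between these shares were not tested.

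**Figure D1:**
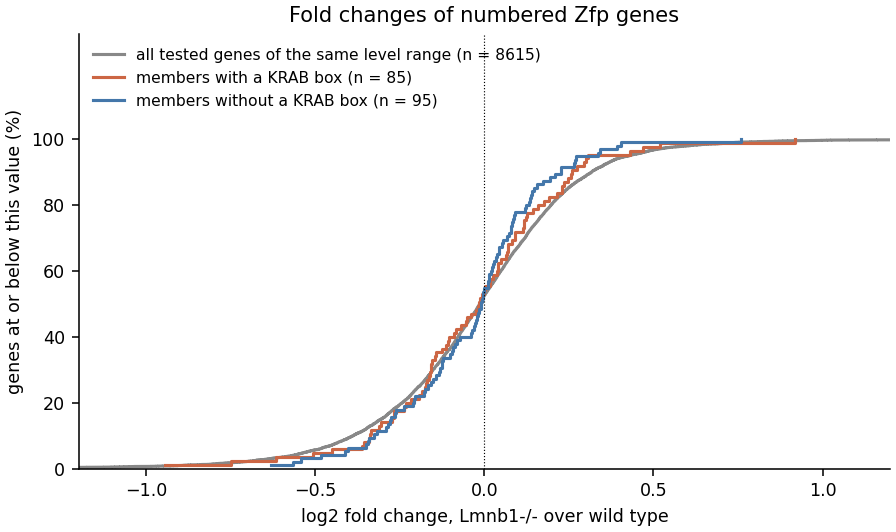
Cumulative share of genes (y axis, percent) against the log2 fold change, Lmnb1-/- over wild type (x axis). The curves are for 85 members with a KRAB box found by pattern, 95 with none found, and the 8615 tested genes whose mean level lay within the members' range. The 3 curves cross near 0, with medians of -0.02, -0.01 and -0.01, and few members lie beyond 0.5 in either direction.

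No member's fold change exceeded 2-fold, and 1.10% of the 8615 tested genes in the members' range of mean level did. The 95% interval of the log2 fold change, unadjusted for the number of genes, stayed within a 2-fold change in both directions for 166 of 181 members (91.7%) and within 1.5-fold for 88 (48.6%). Among those 8615 genes the shares were near these, at 89.3% and 50.7%. Members had a median standard error of 0.20 on the log2 scale, against 0.18 in the 8615 genes. The fold changes themselves had an SD of 0.25 over members and 0.33 over those 8615 genes. Between wild type replicates, the median SD of log2 CPM was 0.22 for members and 0.23 for those genes.

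**Figure D2:**
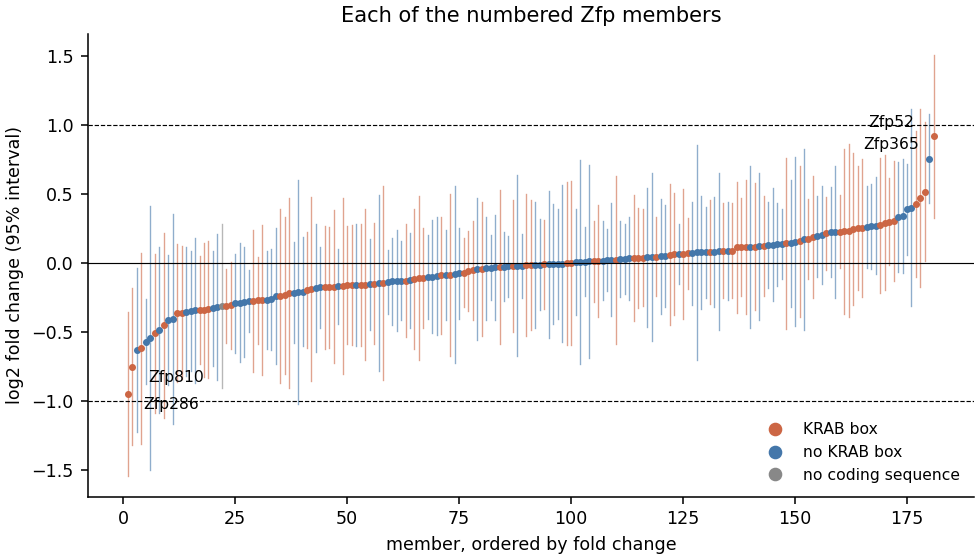
Log2 fold change of each of the 181 members (y axis, points) with its 95% interval (bars), ordered by size (x axis) and coloured by the presence of a KRAB box, with dashed lines at a 2-fold change. The intervals of 10 members leave out 0, and Zfp52, Zfp365, Zfp286 and Zfp810 stand at the ends.

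Summed over members, the level was flat across libraries. The 181 genes summed to 7114, 7184, 6882 and 7435 CPM in wild type replicates 1 to 4 and to 7058, 7048 and 7096 CPM in Lmnb1-/- replicates 1 to 3. The Lmnb1-/- sums all lay within the wild type range. The median over members of each library's log2 CPM, centred on the gene's mean over libraries, was 0.00, 0.04, -0.04 and 0.06 in wild type and -0.03, 0.01 and 0.01 in Lmnb1-/- libraries, again with the Lmnb1-/- values inside the wild type range.

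**Figure D3:**
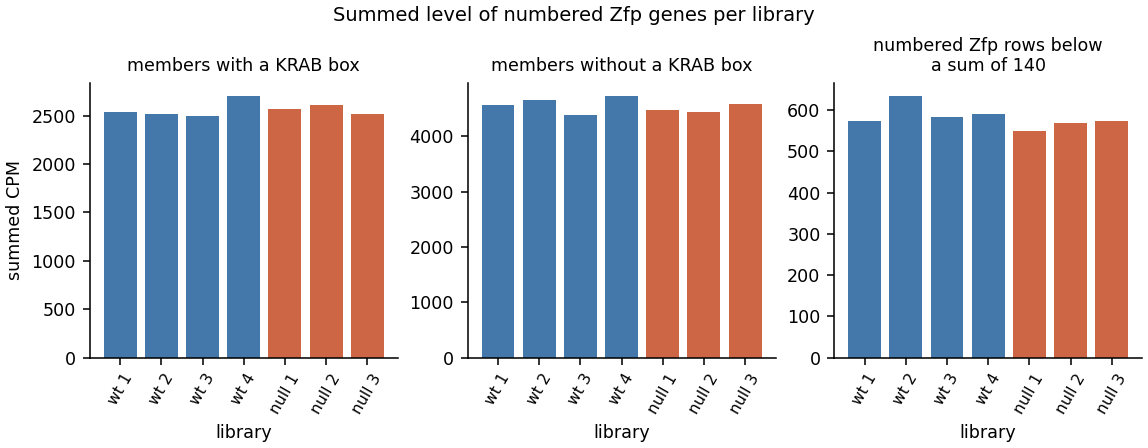
Summed CPM (y axis) in each of 4 wild type and 3 Lmnb1-/- libraries (x axis), for members with a KRAB box, members without, and the 158 numbered Zfp rows under the threshold of 140 counts. In the left and middle panels the Lmnb1-/- bars lie within the wild type range, while in the right panel they run from 548.9 to 572.9 CPM against 574.1 to 634.4 CPM in wild type.

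The 1 called gene, Zfp365, encodes a coiled-coil protein found at the centrosome, and its coding sequence had 0 matches to the C2H2 finger pattern and no KRAB box. It stood at 28.7, 28.9, 29.0 and 24.9 CPM in wild type replicates 1 to 4 and at 48.9, 42.6 and 49.3 CPM in Lmnb1-/- replicates 1 to 3. Every Lmnb1-/- library was above every wild type library. The raw counts behind these levels were 66, 28, 77 and 59 against 152, 76 and 96. Zfp365 rose 1.69-fold, or 0.76 on the log2 scale (SE 0.15, 95% interval 0.44 to 1.08, edgeR adjusted p = 0.03955). The call was kept without wild type replicate 1 (adjusted p = 0.02805) and lost without any other single library, at adjusted p = 0.05335, 0.102 and 0.102 without wild type replicates 2, 3 and 4 and 0.177, 0.149 and 0.147 without Lmnb1-/- replicates 1, 2 and 3. It was also lost in the 5 male libraries alone and in a fit with a term for sex, at edgeR adjusted p = 0.0686 and 0.0963, where the log2 fold change was 0.83 in both.

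Among members that did not pass, Zfp52 had the largest positive difference and Zfp286 the largest negative one, and both encode KRAB proteins, with 14 and 10 fingers. Zfp52 was at 11.3, 8.27, 5.65 and 10.5 CPM in wild type and at 14.5, 18.0 and 19.0 CPM in Lmnb1-/- libraries. Zfp286 was at 16.5, 12.4, 10.5 and 16.02 CPM against 8.04, 6.17 and 7.19 CPM. The groups' ranges lay apart in both genes, in opposite directions. Their log2 fold changes were 0.92 (SE 0.28, edgeR adjusted p = 0.157) and -0.95 (SE 0.28, edgeR adjusted p = 0.148). The counts behind them were low, from 8 to 45 for Zfp52 and from 11 to 38 for Zfp286. Of the counts of Zfp52, 11.3% lay in the second count column, which appears to hold reads that match several places.

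Other members with higher, separate ranges were moderate in size. Zfp961, a KRAB gene, was at 18.7, 9.30, 13.9 and 17.7 CPM in wild type and 19.3, 24.1 and 23.6 CPM in Lmnb1-/- libraries. Zfp367, without a KRAB box, was at 40.9, 28.9, 40.7 and 40.1 against 49.5, 48.8 and 52.9 CPM. Their log2 fold changes were 0.52 and 0.39, with edgeR adjusted p-values of 0.351 and 0.285. The other 4 of the 8 members with higher ranges, Zfp180, Zfp330, Zfp329 and Zfp715, had log2 fold changes of 0.27, 0.27, 0.23 and 0.22. Zfp330, which encodes a nucleolar protein, had 36.2% of its counts in the second column, so its level is uncertain.

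The clearest lower member, although not called, was Zfp651. It stood at 57.4, 71.3, 66.7 and 70.8 CPM in wild type replicates 1 to 4 and at 47.9, 39.8 and 45.7 CPM in Lmnb1-/- replicates 1 to 3, with no overlap. Its log2 fold change was -0.57 (SE 0.14, edgeR adjusted p = 0.0935). When single libraries were left out, Zfp651 was called only without wild type replicate 1, at an edgeR adjusted p of 0.0370. Zfp687, part of a zinc finger complex with Zfp592 and Zfp532, was at 14.4, 13.4, 17.7 and 27.8 CPM against 12.2, 10.7 and 13.4 CPM, where wild type replicate 4 was well above the other libraries. The log2 fold changes of Zfp687, Zfp592 and Zfp532 were -0.63, -0.48 and -0.07, with edgeR adjusted p-values of 0.342, 0.474 and 0.873. The abundant Zfp644, whose protein acts with the H3K9 methyltransferases G9a and GLP, was at 190.1, 179.8, 200.7 and 206.2 CPM against 174.9, 151.4 and 155.2 CPM, a log2 fold change of -0.28 (SE 0.105, edgeR adjusted p = 0.270). Zfp68, a KRAB gene, was at 87.0, 96.1, 88.1 and 106.7 against 82.0, 75.2 and 70.4 CPM, a log2 fold change of -0.31. The remaining decreases named by the same rule, Zfp938, Zfp870, Zfp623 and Zfp369, lay between -0.34 and -0.36.

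**Figure D4:**
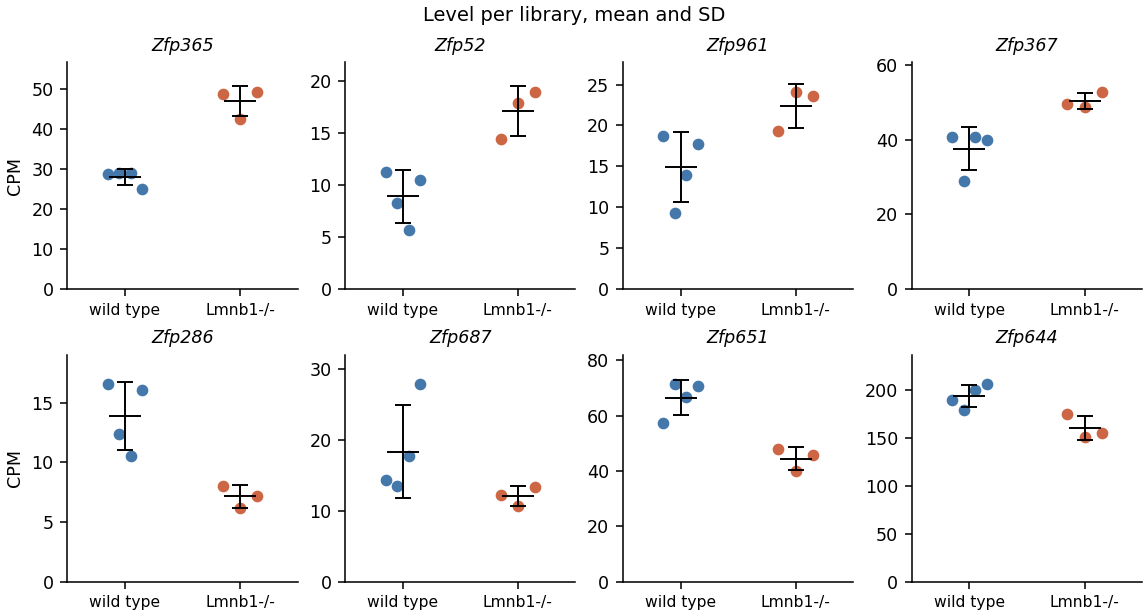
CPM (y axis, from 0) of 8 members in each library (points), with the mean and SD of 4 wild type and 3 Lmnb1-/- libraries (bars). The upper row shows members whose Lmnb1-/- values all lie above wild type, from 42.6 to 49.3 against 24.9 to 29.0 CPM for Zfp365, and the lower row members whose values all lie below.

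The 4 sequences that follow are the 250 bases before the annotated start of the called gene and of 3 uncalled members with separate CPM ranges, printed 5' to 3' along the gene's strand with each CpG pair in capitals. They come from RefSeq, build GRCm38.p6, which is not the mm9 build named for the counts, and they are shown because these promoters differ widely in CpG content.
Zfp365 (chr10:67912663-67912912, minus strand): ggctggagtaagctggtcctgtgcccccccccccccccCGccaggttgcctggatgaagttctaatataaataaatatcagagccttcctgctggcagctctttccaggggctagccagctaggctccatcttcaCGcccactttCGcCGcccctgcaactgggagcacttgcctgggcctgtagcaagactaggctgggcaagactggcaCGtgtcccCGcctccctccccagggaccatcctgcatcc
Zfp52 (chr17:21535289-21535538, plus strand): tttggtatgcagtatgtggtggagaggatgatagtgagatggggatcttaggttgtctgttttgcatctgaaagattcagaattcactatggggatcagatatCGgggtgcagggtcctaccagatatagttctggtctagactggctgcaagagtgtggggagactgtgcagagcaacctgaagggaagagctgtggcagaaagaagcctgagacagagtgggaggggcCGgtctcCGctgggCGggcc
Zfp651 (chr9:121759783-121760032, plus strand): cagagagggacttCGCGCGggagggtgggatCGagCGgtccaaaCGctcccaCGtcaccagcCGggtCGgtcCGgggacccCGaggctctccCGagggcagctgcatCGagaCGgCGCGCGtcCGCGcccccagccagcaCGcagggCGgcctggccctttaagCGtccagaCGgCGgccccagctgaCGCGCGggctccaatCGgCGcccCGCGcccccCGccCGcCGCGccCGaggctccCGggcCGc
Zfp68 (chr5:138619744-138619993, minus strand): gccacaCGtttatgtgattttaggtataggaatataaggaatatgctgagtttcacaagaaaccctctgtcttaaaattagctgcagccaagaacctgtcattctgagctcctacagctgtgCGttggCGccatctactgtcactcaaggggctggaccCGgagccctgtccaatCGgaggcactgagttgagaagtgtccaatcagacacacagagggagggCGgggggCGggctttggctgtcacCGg
These windows held 6, 4, 38 and 8 CpG pairs. Of the members, 144 had a window in the RefSeq table, or a first listed one where there were several, and over the same 250 bases their median was 12 CpG pairs, with 9 for KRAB members (71 windows) and 14 for the others (73 windows). The median was 17 over 7702 tested genes matched by symbol and 6 over all 27025 genes with a window. All 7 strings below were searched on both strands of the same 250 bases, and none is part of another. The letters CCAAT occurred in 52.1% of KRAB members' windows and 38.4% of the other members', against 37.0% of tested genes' and 34.5% of all windows. The letters CGGAAG, the core read by ETS factors, occurred in 29.2% of members' windows, 27.0% of tested genes' and 13.8% of all windows. GGGCGG occurred in 50% of members' windows, fewer than the 62.2% of tested genes' and more than the 32.9% of all windows. TATAAA occurred in 6.94% of members' windows, 5.88% of tested genes' and 12.97% of all. AAGATGG occurred in 4.17% of members' windows, 4.29% of tested genes' and 4.53% of all. The share for ACTACAA was 5.56% in members, 4.29% in tested genes and 2.98% in all windows. For the BANP motif, a longer palindrome with CGCG at its centre, the shares were 0%, 0.922% and 0.407% in the same order. The letters CGCG alone, present in the Zfp651 window, were not counted. None of these differences was tested. A match is a description of the letters and not evidence that a factor binds there.

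The fold changes of KRAB members and of the others had similar medians, and the difference between them was not tested. A KRAB box was found by pattern in the translated coding sequence of 85 members, while Zfp862 had no coding sequence in the annotation used. The other 95 had no match, among them Zfp192, now named Zkscan8. A box that the patterns miss would be counted with these 95, so the classes are by pattern only. KRAB members had a median of 12 fingers (range 3 to 23) and the others 7 (range 0 to 36), the most being in Zfp142. The median log2 fold change was -0.02 in KRAB members, with 39 of 85 above 0, and -0.01 in the others, with 43 of 95 above 0. Among KRAB members 0 were called by edgeR in either direction, and 2 were higher and 3 lower by an unadjusted p under 0.05 (5.88%, beside 13.6% of all tested genes). Per kilobase of exon, the median level was 4.07 CPM in KRAB members, 6.06 CPM in the others and 7.87 CPM in all tested genes. KRAB members summed to 2534, 2520, 2498 and 2702 CPM in wild type and 2572, 2608 and 2514 CPM in Lmnb1-/- libraries.

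Members in tandem clusters also had a median near that of members outside them. A cluster was taken as a run of at least 3 numbered Zfp genes with at most 5 other protein-coding genes between neighbours, by gene order in a GRCm38 annotation. Of the members 83 lay in such runs, among them 64 of the 85 KRAB members (75.3%) and 19 of the 95 others (20%). The median log2 fold change was -0.01 in runs (40 of 83 above 0) and -0.02 outside (42 of 98 above 0), and 0 members in runs were called by edgeR, with 2 higher and 1 lower by an unadjusted p under 0.05 (3.61%, beside 13.6% of all tested genes). Chromosome 7 held 32 members and chromosome 17 held 26, with medians of -0.03 and -0.02. The 3 members on chromosome X, Zfp182, Zfp275 and Zfp449, had a median of -0.03.

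In larger runs, neighbours lay on both sides of 0. In all 8 runs with 4 or more members, holding 46 members, some were above 0 and some below, and the medians ran from -0.20 to 0.07. The run with the most members, Zfp160 to Zfp13 on chromosome 17, held 13 members, all with a KRAB box, 7 above 0 and 6 below. Next to Zfp52 among the members of that run, Zfp53 and Zfp948 had log2 fold changes of 0.27 and 0.19, and Zfp51, on the other side of Zfp53, was at -0.27. Among these 8 the lowest median, -0.20, was that of the run Zfp871 to Zfp563 on chromosome 17, where 4 of 6 members were below 0. The run Zfp653 to Zfp810 on chromosome 9 held 3 members, all below 0, from -0.01 for Zfp809 to -0.75 for Zfp810, and the run Zfp180 to Zfp94 on chromosome 7 held 3 members all above 0, from 0.11 for Zfp111 to 0.27 for Zfp180. Zfp810 was at 15.2, 28.9, 23.0 and 20.7 CPM in wild type and 10.6, 16.8 and 11.3 CPM in Lmnb1-/- libraries, where the ranges overlapped (edgeR adjusted p = 0.238).

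**Figure D5:**
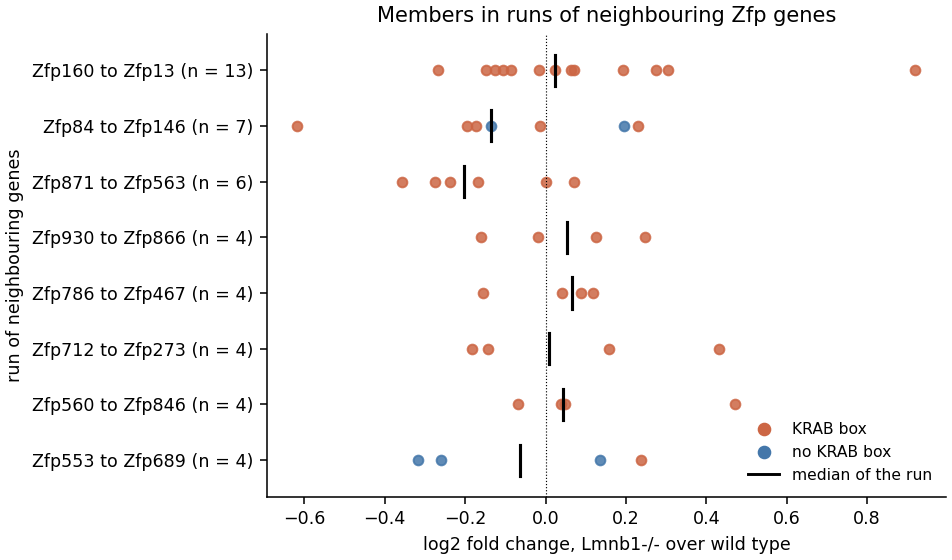
Log2 fold change (x axis) of the 46 members in the 8 runs of neighbouring genes that hold 4 or more members (y axis, named by the outermost numbered Zfp genes), with the median of each run as a bar. Members of each run lie on both sides of 0, and Zfp52 at 0.92 stands apart in the run Zfp160 to Zfp13.

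Members with a described silencing role were at similar levels in both genotypes. Of the 7 genes listed for this role, 4 were members, and 0 passed in either direction, with a median log2 fold change of 0.08. The proteins of Zfp57 and Zfp445 act at imprinted loci on the marked allele. Zfp57 was at 58.3, 53.7, 61.4 and 54.4 CPM against 66.6, 70.7 and 56.5 CPM, and Zfp445 at 97.0, 142.6, 118.2 and 132.8 against 109.3, 122.3 and 120.2 CPM. Both overlapped between groups. Zfp568, which represses a placental promoter of Igf2, was at 172.2, 160.1, 155.1 and 174.6 against 206.8, 218.2 and 157.2 CPM, a log2 fold change of 0.23 (SE 0.12, edgeR adjusted p = 0.441). Zfp809, which silences retroviral sequence, had a log2 fold change of -0.01 (SE 0.15). Zfp932, Zfp819 and Zfp708 were below the threshold of 140 counts, with 50, 2 and 37 counts in the first column. The second column held 157, 5 and 13 counts for them, so that Zfp932 had most of its counts there.

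Of 22 listed transcription regulators outside the KRAB family, 17 were members, 5 above 0 and 12 below, with a median of -0.02 and 0 called in edgeR. Zfp462, a regulator with 33 fingers, was at 32.6, 56.8, 45.9 and 36.7 CPM in wild type and 30.2, 33.7 and 37.0 CPM in Lmnb1-/- libraries, a log2 fold change of -0.33 (SE 0.19). Zfp281 and Zfp148, which bind GC-rich promoters, were at -0.02 and -0.03, and Zfp143, a promoter-binding activator, at -0.16. Members with roles in RNA, ribosomes, ubiquitin or the spindle numbered 15 of 18 listed, 9 above 0 and 6 below, with a median of 0.02 and 0 called. Zfp207, a spindle protein, and Zfp598, a ubiquitin ligase that acts on stalled ribosomes, had log2 fold changes of 0.02 and -0.20. Zfp706 and Zfp277 were at 0.27 and -0.34, with 28.5% and 10.9% of their counts in the second column.

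The 6 members of highest CPM were Zfp106, Zfp91, Zfp266, Zfp644, Zfp568 and Zfp664. Zfp106, an RNA-binding protein gene, was at 302.3, 292.4, 262.5 and 267.8 CPM in wild type and 292.0, 283.8 and 253.8 CPM in Lmnb1-/- libraries, a log2 fold change of -0.02 (95% interval -0.24 to 0.20). Zfp91, which encodes a ubiquitin ligase, was at 252.3, 208.7, 224.8 and 223.1 against 234.4, 239.5 and 242.5 CPM, a log2 fold change of 0.07 (95% interval -0.15 to 0.28). The intervals of both genes leave out any change of 1.5-fold, although 11.7% of the counts of Zfp106 lay in the second column. Zfp266, a KRAB gene, and Zfp664 had log2 fold changes of -0.07 and 0.01. Per kilobase of exon the order was Zfp266 at 28.7, Zfp106 at 26.8, Zfp207 at 25.7 and Zfp260 at 24.3 CPM. At the threshold that chose the members, Zfp668, Zfp521 and Zfp384 were just inside, with 141, 142 and 142 counts in all, and Zfp511, Zfp937 and Zfp953 just outside, with 138, 137 and 136.

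The 158 rows left out by the threshold had low counts in the first column, which is not the same as low expression. The second column held over 50% of the counts of 23 of them, and 18 reached 140 with both columns summed, such as Zfp97 with 29 counts in the first column and 339 in the second. They held 93 KRAB genes among 155 with a coding sequence (60%), against 47.2% of members. There were 14 at 0 in the first column in every library, of which 11 were at 0 in both columns and 3 had counts in the second, and 66 passed the filter on low counts, with a median log2 fold change of -0.07, 27 above 0 and 39 below. All 158 rows summed to 574.1, 634.4, 583.3 and 590.8 CPM in wild type and to 548.9, 569.9 and 572.9 CPM in Lmnb1-/- libraries, so that the ranges lay just apart, a difference that was not tested. Among the 66, 0 were called by edgeR, and 3 were higher and 1 lower by an unadjusted p under 0.05, which is 6.06% beside 13.6% of all tested genes (Zfp595, Zfp956 and Zfp937 at 0.79, 0.92 and 0.66, and Zfp169 at -0.77). Of the counts of Zfp937, 66.3% lay in the second column. In the first column, rows seen in Lmnb1-/- libraries alone numbered 4, and rows seen in wild type alone also 4, none with more than 2 counts. At these depths 3 counts correspond to 0.965 to 3.10 CPM, so appearance or loss below that level was not detectable.

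Few members had a large share of counts in the second column, which is in part built in, because members were chosen by the first. The second count column was empty for 99 of 181 members and for 7433 of 10775 tested genes. It held over 10% of the counts of 22 members, 13 of them among the 85 KRAB members, and of 1260 tested genes. It held over 50% for Zfp617, Zfp738 and Zfp747 (81.5%, 57.6% and 51.5%), whose log2 fold changes were -0.11, -0.18 and 0.24 by the first column and 0.10, -0.20 and -0.03 with both columns summed. The direction of Zfp617 and of Zfp747 thus turned with the counting. With both columns summed, Zfp365 was still the only member called.

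Genes of the silencing machinery that KRAB proteins recruit were measured with the members. The list also holds other repressive chromatin genes, such as Dnmt1, Dnmt3a, Ehmt1 and Morc3, so its shares are not those of the recruited machinery alone. Of 24 listed, 23 had a row and 22 were tested, 12 above 0 and 10 below, with a median of 0.02, and 0 passed in edgeR, while 3 were higher and 3 lower by an unadjusted p under 0.05 (27.3%, beside 13.6% of all tested genes). The corepressor gene Trim28 was at 332.3, 292.4, 290.0 and 286.8 CPM in wild type and 369.5, 362.9 and 321.2 CPM in Lmnb1-/- libraries, with overlap and a log2 fold change of 0.23 (SE 0.10, edgeR adjusted p = 0.350). Setdb1 was at 0.08 (SE 0.15). Atf7ip, the partner that stabilizes SETDB1 in the nucleus, was at 27.8, 53.7, 35.4 and 36.3 CPM in wild type and 23.8, 24.7 and 17.5 CPM in Lmnb1-/- libraries, a log2 fold change of -0.75 (SE 0.22, edgeR adjusted p = 0.152). Atf7ip ranges lay apart. When single libraries were left out, it was called only without wild type replicate 1, at an edgeR adjusted p of 0.0492. The deacetylase gene Hdac2 and the remodeller gene Chd3 had log2 fold changes of 0.34 and -0.33 (edgeR adjusted p = 0.171 and 0.319). For Cbx3, Hdac1 and Uhrf1, 94.71%, 87.35% and 25.93% of the counts lay in the second column, so their levels are uncertain.

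Related zinc finger families gave medians of 0.00 for 18 tested genes named Zfp with a number and a letter, -0.04 for 33 Zbtb genes, 0.05 for 11 Zscan and Zkscan genes and -0.11 for 15 Klf and Sp genes, with 0 called by edgeR in any of them. By an unadjusted p under 0.05, 1, 3, 1 and 3 of these genes differed, or 5.56%, 9.09%, 9.09% and 20% of each family, beside 13.6% of all tested genes. Klf9, a Krüppel-like transcription factor gene, had the smallest p among them, with 53.4 ± 4.44 CPM over wild type libraries (SD, n = 4) against 34.7 ± 2.12 CPM over Lmnb1-/- libraries (SD, n = 3), a log2 fold change of -0.61 (edgeR adjusted p = 0.0803). In the other families the smallest p belonged to Zfp354c, Zbtb4 and Zkscan1, with log2 fold changes of -0.44, -0.60 and -0.31.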

How the data were processed

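RNA was sequenced from 7 epicardial explant libraries, 4 wild type and 3 Lmnb1-/-, after PicoPure extraction and TruSeq RNA v2 library preparation, per the labels' protocols. TopHat, edgeR and mm9 are listed in the submitters' processing notes, without versions or settings. For the counting program and annotation, the sources used here give no name. Each deposited table pairs gene names with 2 columns of raw counts that carry no heading. The first column was used. The second held 16.6 to 19.6% of all counts and was read, from its values, as reads matching several places.

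Genes were filtered with filterByExpr, which kept 10775, scaled by TMM and tested with edgeR's quasi-likelihood test with robust dispersion (edgeR 4.0.16, limma 3.58.1, R 4.3.3) on the whole table. Benjamini-Hochberg adjustment ran over all tested genes, with a threshold of 0.05. A standard error is the size of the log2 fold change over the root of its F statistic. The 2 rows each of Zfp131 and Zfp781 were kept apart, and none reached 140 counts. Of 181 members, 171 matched a GENCODE M21 symbol and 10 a synonym. KRAB boxes were found by patterns for either end of the A box, and fingers by the C2H2 spacing, in the longest M21 coding sequence, since RefSeq proteins were not used here. Exonic length was the union of exons.

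The members, lists and tests were chosen with earlier results of these data known. The text names called members, the 8 largest increases and 8 largest decreases with separate ranges, the 6 most abundant members, 3 on either side of the threshold, up to 3 genes of smallest p per list, and Lmnb1. Other genes were chosen after their values were seen, among them Zfp810, Zfp532, Zfp53, Zfp51, Zfp948, Zfp111, Zfp97, the second-column examples and further role members. Alternatives were RLE factors, library totals, other count filters, DESeq2 1.42.0, limma voom, a replicate block, a term for sex, male libraries, library-number groups, both columns, other member thresholds and leaving out each library. The procedure was tested on simulated counts.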

Additional observations from a re-analysis of the deposited data

Results flagged for a closer look

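The 4 wild type values of 50 named genes were examined for a highest or lowest library whose gap to the nearest other one, as a share of the range of all 4, passed the 95% critical value of Dixon's test, and 4 genes passed, where chance gives about 1 in 20. Zfp365 was lowest in wild type replicate 4, at 24.9 CPM. Zfp367 was lowest in wild type replicate 2, at 28.9 CPM. Zfp664 was highest in wild type replicate 4, at 204.5 CPM. Klf6, a Klf family gene, was highest in wild type replicate 1, at 462.8 CPM.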

How the results depend on the processing

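The count of called members was 1 higher and 0 lower with RLE factors, library totals, either other count filter, DESeq2, limma voom, library-number groups as a block, and both columns summed. It was the same with member thresholds of 70 and 280, which leave the fit unchanged and which Zfp365, with 554 counts, passes. The count was 0 higher and 0 lower with the replicate block, with a term for sex and in male libraries only, with 9, 11 and 12 members at an unadjusted p under 0.05 in edgeR. Library-number groups held wild type 1 with Lmnb1-/- 1, wild type 2 with 3, and wild type 4 with Lmnb1-/- 2 and 3. Wild type 2 and 3 thus add nothing to the genotype contrast in that block fit, nor does wild type 4 in the replicate block fit. Leaving out 1 library at a time gave 0 to 1 higher (Zfp365, kept without wild type replicate 1 only) and 0 to 1 lower (Zfp651, without wild type replicate 1). The deviations of same-numbered libraries correlated at 0.26, -0.16 and -0.09. No such value was computed for libraries of different number, so whether replicate numbers pair the samples was not settled. Zfp365 had a log2 fold change of 0.71 with the replicate block (adjusted p = 0.101 by edgeR).

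The numbered Zfp member median log2 fold change was 0.0287 with library totals, -0.0534 with a term for sex, -0.0547 in male libraries and -0.0598 with library-number groups, and ran from -0.0506 to 0.006 on leaving out each library. Except for library totals, no median over all tested genes is given for these fits. A shift of members alone therefore cannot be read from them. The KRAB member median log2 fold change was 0.0277 with library totals and -0.0598 with library-number groups, and ran from -0.0405 to 0.0149. The clustered member median log2 fold change (members in runs) was 0.0356 with library totals and ran from -0.0459 to 0.0114. Counts over the partner and related lists ran from 0 to 1 higher (Klf6) and 0 to 3 lower (Atf7ip, Zbtb4 and Klf9), with these calls all arising without wild type replicate 1. Role groups had 0 calls throughout.

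Of 50 named genes, these turned direction, nearly all from values near 0. Zfp106 was at 0.0234 with library totals. Zfp664 was at -0.0779 with a term for sex, -0.0831 in male libraries and -0.0962 with library-number groups. Zfp521 was at -0.0914 with the replicate block, Zfp511 at 0.0763 with library-number groups and Zfp953 at -0.0085 with limma voom. Zscan22 was at 0.79 and 0.25 with a term for sex and with library-number groups, against -0.40. On leaving out each library, Zfp106 ran from -0.0641 to 0.0428, Zfp664 from -0.0253 to 0.1231, Zfp521 from -0.0893 to 0.2009 and Zfp511 from -0.2105 to 0.0476. Zfp953 ran from -0.1918 to 0.1815, Zfp445 from -0.1558 to 0.0175, Zfp266 from -0.1625 to 0.0006 and Zfp384 from -0.0822 to 0.3897. The cause of these changes was not tested.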
